A study of Mus musculus with 12 samples.

Results

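Adipokines are proteins that fat cells release, and 10 of their genes, Adipoq, Lep, Retn, Cfd, Rbp4, Apln, Nampt, Rarres2, Nrg4 and Hp, were followed across cells sorted from the wall of the newborn mouse aorta and its fat. The set was fixed as a list of gene symbols, each found once among the 36512 genes of the count table, and all 10 had enough counts to be tested. The study isolated aorta together with the surrounding perivascular fat from CD-1 pups aged 3 days, males and females mixed, digested the tissue and sorted cells by flow cytometry. Poly(A) RNA was amplified with a low-input kit that favours full-length transcripts and sequenced. The labels name 4 populations with 3 libraries each, called here preadipocyte, smooth muscle, intermediate and progenitor, and describe no mutation, transgene or treatment in any of them. They give neither the gates nor the number of pups behind a library, and they do not say whether replicates are separate litters or sorts. A p-value here thus speaks of the scatter among these libraries, and that scatter could be technical.

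Fat cells work as an endocrine organ: as precursors fill with lipid they begin to transcribe hormones that report the energy store to the brain, liver, muscle and vessel wall. Perivascular fat lies against the outer coat of the artery, so that its products can reach smooth muscle without passing through the blood. The proteins of the set differ in kind. Adiponectin, leptin and resistin are hormones, adipsin and NAMPT are enzymes, RBP4 and haptoglobin are carriers, and apelin, chemerin and neuregulin 4 are ligands of cell surface receptors.

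Libraries held 15148249 to 15739798 counts in preadipocyte, 11701825 to 13256506 in smooth muscle, 12862486 to 15550623 in intermediate and 14778738 to 17123109 in progenitor samples. Levels below are CPM after TMM scaling, which are counts scaled to the size of the library, with the SD over 3 libraries, and a gene was called when edgeR's quasi-likelihood test gave an adjusted p under 0.05 over the 21285 genes tested. The labels were checked against marker genes, but the lists held no marker particular to intermediate libraries. Those libraries had 1070 ± 179 CPM of summed contractile markers and 2372 ± 114 CPM of progenitor markers. Smooth muscle libraries had 7505 ± 328 CPM of the former and progenitor libraries 7628 ± 449 CPM of the latter. Smooth muscle libraries also held 1459 ± 244 CPM of mesothelial markers and 844 ± 132 CPM of Schwann cell and neuron markers. Of 18 lipid storage genes, 17 were called higher in preadipocyte than in progenitor libraries, and all 8 progenitor markers were called lower. Over all genes tested 25.1% were called higher and 25.9% lower there. The contractile gene Myh11 stood at 1125 ± 207 CPM in smooth muscle libraries and the progenitor marker Pi16 at 838 ± 124 CPM in progenitor libraries. Preadipocyte libraries also carried 119 ± 36.2 CPM of Ucp1, a gene of heat-producing fat. Preadipocyte replicate 3 had 1.84% of its counts on haemoglobin genes, where preadipocyte replicates 1 and 2 had 0.114% and 0.129%. All 3 lay above every other library: progenitor libraries had 0.00803% to 0.0253%, and smooth muscle and intermediate libraries at most 0.00336%. The part of red cell RNA in the preadipocyte levels was not tested. Olfactory and vomeronasal receptor genes, 1064 genes of sensory neurons, took 711 to 1033 CPM by library size in smooth muscle libraries and at most 316 CPM elsewhere. Their counts per kilobase of exon gave an even background, against which low member counts are read below.

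The promoters of Adipoq, Lep, Retn and Cfd are shown because these 4 had the widest fitted rise of the set in preadipocyte over progenitor libraries. RefSeq promoter sequences for GRCm38.p6 were matched for 8 of the 10 genes, all but Rarres2 and Hp. Each line gives the 250 bases before the start site, 5′ to 3′. All 4 genes lie on the plus strand, and the windows shown are those of Adipoq at chr16:23146286-23146535, Lep at chr6:29059971-29060220, Retn at chr8:3655520-3655769 and Cfd at chr10:79890603-79890852. Capitals mark matches on either strand to a C/EBP motif, spelled TTNNGNAA, or to an E box, spelled CANNTG.
Adipoq: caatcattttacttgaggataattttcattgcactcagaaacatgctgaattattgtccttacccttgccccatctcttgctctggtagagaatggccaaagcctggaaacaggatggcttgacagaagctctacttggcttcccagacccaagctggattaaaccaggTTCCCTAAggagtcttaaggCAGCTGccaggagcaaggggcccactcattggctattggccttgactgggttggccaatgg
Lep: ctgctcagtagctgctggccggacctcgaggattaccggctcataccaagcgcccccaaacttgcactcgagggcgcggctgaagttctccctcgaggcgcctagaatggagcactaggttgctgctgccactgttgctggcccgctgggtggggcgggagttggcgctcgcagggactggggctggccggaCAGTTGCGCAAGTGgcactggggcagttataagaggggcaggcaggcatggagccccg
Retn: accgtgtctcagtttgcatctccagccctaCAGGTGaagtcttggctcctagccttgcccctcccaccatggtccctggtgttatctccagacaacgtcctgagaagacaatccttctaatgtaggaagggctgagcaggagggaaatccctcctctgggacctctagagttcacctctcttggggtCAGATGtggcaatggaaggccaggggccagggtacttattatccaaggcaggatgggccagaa
Cfd: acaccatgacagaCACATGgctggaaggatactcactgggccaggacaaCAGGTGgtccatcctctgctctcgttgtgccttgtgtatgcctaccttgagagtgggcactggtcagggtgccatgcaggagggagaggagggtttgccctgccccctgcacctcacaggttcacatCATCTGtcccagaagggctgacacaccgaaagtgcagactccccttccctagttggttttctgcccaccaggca
Adipoq held a C/EBP match at positions -81 to -74 and an E box at -61 to -56, where -1 is the base before the start site. In Lep a palindromic C/EBP match at -55 to -48 overlapped 2 E boxes, at -58 to -53 and -50 to -45, so that the capitals form 1 run. Retn held 2 E boxes and no C/EBP match, and Cfd held 3 E boxes and no C/EBP match. None of these 4 windows held AGGTCA, a nuclear receptor motif, on either strand. Among 32851 promoters of the same length, 36.8% held a C/EBP match, 66.2% an E box and 14.0% AGGTCA, so these letters are common and their presence is a description of the sequence.

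Most of the 10 genes were highest in preadipocyte libraries. By mean level this held for 9 of 10, where 29.7% of all genes tested were highest in that population, and Rarres2 was highest in progenitor libraries. The lowest mean was in smooth muscle for 5 genes, in intermediate for 2, in progenitor for 2 and in preadipocyte for 1. Of all genes tested, 20.9%, 17.0%, 25.0% and 37.0% were lowest in these populations, so the intermediate and progenitor counts lie near those shares. Each of the 10 differed somewhere among the 4 populations by the F test, with adjusted p from 1.2e-11 for Adipoq to 0.00419 for Nrg4, while 79.8% of all genes tested did. In sorted bulk samples, fewer cells that use a gene and less RNA of it per cell cannot be told apart, here and below.

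**Figure D1:**
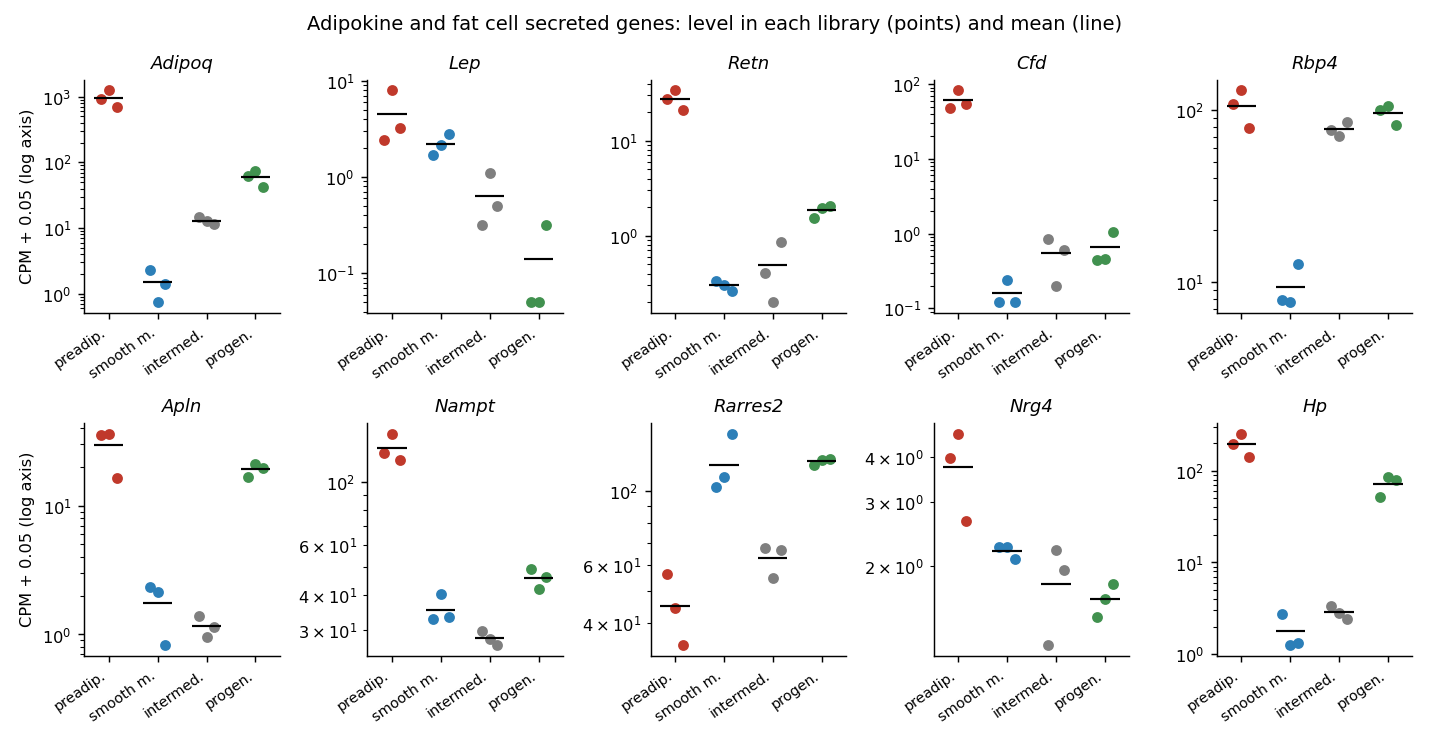
Level of each of the 10 genes in every library, as CPM after TMM scaling plus 0.05 on a log axis, for preadipocyte, smooth muscle, intermediate and progenitor libraries from left to right. Points are libraries and lines are means of 3 libraries. The preadipocyte mean is the highest for 9 genes, though single preadipocyte libraries of Lep, Rbp4 and Apln lie within or under another population, and Rarres2 has its lowest mean there, at 45.1 CPM.

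Against progenitor libraries, preadipocyte libraries were called higher for 7 of the 10 genes, lower for Rarres2, and Rbp4 and Apln did not pass. Over all genes tested, 50.9% were called, 25.1% higher and 25.9% lower. The median log2 fold change was 1.49 over the 10 genes and 0.04 over all genes. Against intermediate libraries, 8 were higher, Rarres2 was lower and Rbp4 did not pass, where 57.1% of all genes were called, 26.0% higher and 31.1% lower. The median was 3.79, against -0.24 over all genes. Against smooth muscle libraries, 8 were higher, Rarres2 was lower and Lep did not pass, where 66.6% of all genes were called, 25.9% higher and 40.7% lower. The median was again 3.79, against -0.35 over all genes. These 3 comparisons share the preadipocyte libraries.

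The other populations differed among themselves with fewer increases. Smooth muscle libraries were called higher than progenitor libraries for Lep alone and lower for 7 genes, where 54.1% of all genes were called, 30.5% higher and 23.6% lower. The median was -2.58, against 0.09 over all genes. Against intermediate libraries, smooth muscle libraries were higher for Lep and Rarres2 and lower for Adipoq and Rbp4, and 6 genes did not pass. Over all genes 28.8% were called there, 15.7% higher and 13.1% lower, and the medians were -0.20 for the 10 genes and 0.10 for all. Intermediate libraries were lower than progenitor libraries for 6 genes and higher for none, where 27.6% of all genes were called, 14.1% higher and 13.4% lower. At an unadjusted p under 0.05 edgeR had 1 gene higher there, Lep, and DESeq2 called Lep as well.

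Scaling bears on these counts. With library size alone in place of TMM, the median of all genes moved by 0.39, 0.43 and -0.05 for preadipocyte over progenitor, intermediate and smooth muscle libraries. It moved by 0.44 and 0.48 for smooth muscle over progenitor and intermediate libraries, and by -0.04 for intermediate over progenitor libraries. The split of calls over all genes then went to 7857 higher and 3773 lower for preadipocyte over progenitor, with TMM giving 5340 and 5503. For preadipocyte over intermediate it was 7760 and 4233 by library size, with 5540 and 6617 by TMM. For smooth muscle over progenitor it was 9683 and 2015, with 6501 and 5024 by TMM, and for smooth muscle over intermediate 9321 and 1133, with 3346 and 2781 by TMM. For intermediate over progenitor it was 2771 and 3486, with 3009 and 2861 by TMM.

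**Figure D2:**
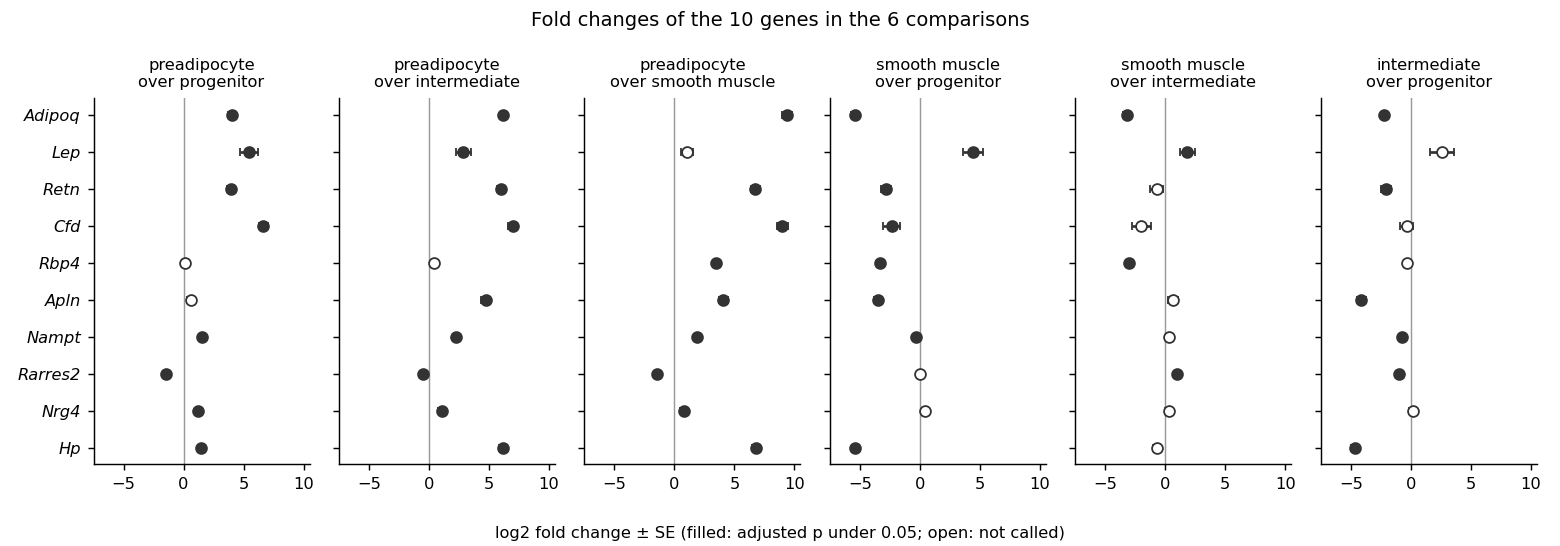
Log2 fold change of each of the 10 genes in the 6 comparisons, with the SE as a bar. Filled points passed an adjusted p of 0.05 and open points did not. Adipoq runs from 9.38 for preadipocyte over smooth muscle to -5.38 for smooth muscle over progenitor, and Rarres2 lies left of 0 in the first 3 panels.

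Adipoq encodes adiponectin, a hormone made almost wholly by fat cells that raises insulin sensitivity, and lies on mm10 at chr16:23146536-23158028 on the plus strand. It stood at 914, 1248 and 693 CPM in preadipocyte replicates 1, 2 and 3. It stood at 2.28, 0.696 and 1.34 CPM in smooth muscle, 14.5, 12.7 and 11.5 CPM in intermediate and 61.9, 74.8 and 41.9 CPM in progenitor libraries. No population overlapped another, and the order ran preadipocyte, progenitor, intermediate, smooth muscle with every step called. The log2 fold change of preadipocyte libraries was 4.0 ± 0.28 (SE) over progenitor, 6.20 ± 0.32 over intermediate and 9.38 ± 0.38 over smooth muscle libraries. These are 16-fold, 73.6-fold and 665-fold, with adjusted p of 1.26e-08, 3.63e-10 and 8.76e-11. Smooth muscle libraries lay 41.6-fold under progenitor libraries (-5.38 ± 0.34) and 9.04-fold under intermediate libraries (-3.18 ± 0.35). Intermediate libraries lay 4.6-fold under progenitor libraries (-2.20 ± 0.27, adjusted p = 3.09e-05). Each of these calls held in all 20 alternatives run.

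Lep encodes leptin, the hormone by which fat tells the brain of the energy store, and lies at chr6:29060220-29073877 on the plus strand. It was scarce in every population, at 2.37, 7.91 and 3.17 CPM in preadipocyte and 1.64, 2.09 and 2.74 CPM in smooth muscle libraries. Intermediate libraries had 0.267, 1.05 and 0.453 CPM, and progenitor libraries 0, 0 and 0.268 CPM. Preadipocyte and smooth muscle libraries overlapped, and both lay above the other 2 populations. The 23, 33 and 39 counts in smooth muscle libraries compare with 9.17, 8.21 and 6.58 counts from an even background, and 1.61 ± 0.648 CPM were left once it was taken off. In progenitor replicates 1 and 2 a count of 0 allows up to 0.203 and 0.178 CPM by library size, counting error alone.

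Preadipocyte libraries were higher than progenitor libraries in Lep by 5.45 ± 0.78 on the log2 scale (adjusted p = 2.31e-05) and higher than intermediate libraries by 2.86 ± 0.60 (adjusted p = 0.000769). Smooth muscle libraries were higher than progenitor libraries by 4.41 ± 0.82 (adjusted p = 0.000393). Folds over progenitor rest on 4 counts, all in replicate 3. Without that library, progenitor libraries held no Lep count, and the fitted values of 9.04 for preadipocyte, 7.96 for smooth muscle and 6.16 for intermediate libraries depend on the prior count and are no bounds. Without progenitor replicate 2 these were 4.85, 3.51 and 1.88. Without preadipocyte replicate 2, the highest of its group, the fold over progenitor was 4.76 and that over intermediate 2.19, and without intermediate replicate 2 the fold over intermediate was 3.70.

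The remaining differences in Lep lay near the threshold. Preadipocyte over smooth muscle gave 1.04 ± 0.51 (adjusted p = 0.083, 95% interval -0.04 to 2.13). It passed at 1.23 with the compared groups alone, at 1.47 without a low-count filter and at 1.28 to 1.39 without preadipocyte replicate 1 or 3, any 1 intermediate library or progenitor replicate 2, and was 0.39 without preadipocyte replicate 2. Smooth muscle over intermediate gave 1.82 ± 0.62 (adjusted p = 0.0391), a call lost at 1.32 to 1.98 without any 1 smooth muscle library or intermediate replicate 1 or 3, and at 1.91 with limma-voom. Intermediate over progenitor gave 2.59 ± 0.97 (adjusted p = 0.0581), which passed without preadipocyte replicate 1, 2 or 3 at 2.57, 2.58 and 2.58 and without intermediate replicate 1 at 2.74, and was 1.71 without intermediate replicate 2.

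Retn encodes resistin, a hormone that mouse fat cells secrete and that lowers the response to insulin, and lies at chr8:3655770-3660110 on the plus strand. It stood at 27.5, 33.9 and 21.1 CPM in preadipocyte, 0.285, 0.253 and 0.211 CPM in smooth muscle, 0.356, 0.150 and 0.815 CPM in intermediate and 1.47, 1.91 and 2.01 CPM in progenitor libraries. Preadipocyte libraries lay above all others and progenitor libraries above the other 2 populations, which overlapped. The smooth muscle values are 4, 4 and 3 counts, where an even background gives 4.32, 3.87 and 3.1, so Retn was not detectable above background there. Preadipocyte libraries were higher than progenitor libraries by 3.92 ± 0.30, or 15.2-fold (adjusted p = 2.85e-08), and higher than intermediate libraries by 5.99 ± 0.36, which is 6.85 without intermediate replicate 3. Over smooth muscle libraries the fitted difference was 6.73 ± 0.38. Intermediate libraries were lower than progenitor libraries by a log2 fold change of -2.06 ± 0.41 (adjusted p = 0.002), which is -2.97 without intermediate replicate 3, and smooth muscle libraries by -2.81 ± 0.43 (adjusted p = 7.22e-05). Smooth muscle over intermediate did not pass at -0.74 ± 0.55, interval -1.92 to 0.43, and was -1.40 without intermediate replicate 2.

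Cfd encodes adipsin, or complement factor D, the protease that cleaves factor B to start the alternative complement pathway, and lies at chr10:79890853-79892655 on the plus strand. It stood at 48.0, 82.6 and 54.2 CPM in preadipocyte libraries, against 0.0713, 0.190 and 0.0703 in smooth muscle, 0.801, 0.150 and 0.544 in intermediate and 0.388, 0.410 and 1.0 in progenitor libraries. Every preadipocyte library was at least 48.0 CPM and no other library was above 1.0, while the other 3 populations overlapped in part. The 1, 3 and 1 counts in smooth muscle libraries compare with 2.52, 2.26 and 1.81 from an even background. The rise over progenitor libraries was 6.64 ± 0.38, or 99.8-fold (adjusted p = 1.52e-09), the widest difference of the 10 genes in that comparison. That rise rests on 5, 6 and 15 counts in progenitor libraries. Over intermediate and smooth muscle libraries it was 6.97 ± 0.40 and 8.98 ± 0.46. Without progenitor replicate 3, intermediate replicate 1 and smooth muscle replicate 2 these 3 values were 7.24, 7.65 and 9.61.

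Among the other populations Cfd rested on few counts. Smooth muscle libraries were lower than progenitor libraries at -2.34 ± 0.70 (adjusted p = 0.0113), which was -2.96 without smooth muscle replicate 2 and did not pass without progenitor replicate 3 (-1.77, adjusted p = 0.0659) or with limma-voom (-2.10, adjusted p = 0.108). Smooth muscle over intermediate did not pass at -2.00 ± 0.76 (adjusted p = 0.0609). It passed with DESeq2 (-2.08), no low-count filter (-2.24), and without preadipocyte replicate 2 (-2.02), intermediate replicate 2 (-2.68), progenitor replicate 2 (-2.19) or progenitor replicate 3 (-2.02), and was -2.63 without smooth muscle replicate 2. Intermediate over progenitor gave -0.33 ± 0.55, interval -1.51 to 0.84. Leaving out intermediate replicate 1 gave -1.06, intermediate replicate 2 gave 0.00 and progenitor replicate 3 gave 0.25.

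Rbp4 encodes the retinol-binding protein that carries vitamin A in blood, which fat as well as liver secretes, and lies at chr19:38116629-38125281 on the minus strand. It stood at 108, 130 and 78.3 CPM in preadipocyte, 7.77, 7.59 and 12.6 CPM in smooth muscle, 76.3, 70.6 and 84.7 CPM in intermediate and 99.4, 106 and 81.5 CPM in progenitor libraries. The 3 populations outside smooth muscle overlapped, and all their libraries lay above every smooth muscle library. The preadipocyte level was higher than that of smooth muscle libraries by 3.49 ± 0.22, or 11.3-fold (adjusted p = 4.03e-09). Smooth muscle libraries lay 10.2-fold under progenitor libraries (-3.35 ± 0.22) and 8.27-fold under intermediate libraries (-3.05 ± 0.22). Preadipocyte over progenitor gave 0.14 ± 0.20 (adjusted p = 0.579, interval -0.28 to 0.56) and turned to -0.04 without preadipocyte replicate 2. With library size alone it was 0.52 and passed.

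Preadipocyte over intermediate gave 0.45 ± 0.20 in Rbp4 (adjusted p = 0.0655, interval 0.03 to 0.87). It passed at 0.64 without preadipocyte replicate 3, 0.46 without smooth muscle replicate 3, 0.59 and 0.60 without intermediate replicates 1 and 3, and 0.56 without progenitor replicate 2. It passed as well with library size alone at 0.87, and at 0.45 to 0.63 with a filter of 5 CPM, the compared groups alone, RLE scaling, DESeq2 and no low-count filter, which makes 11 of 20 alternatives. Intermediate over progenitor did not pass at -0.31 ± 0.20, interval -0.73 to 0.12. Summed hepatocyte markers stood at 2.05, 2.54 and 172 CPM in preadipocyte replicates 1, 2 and 3, with Alb at 58.9 CPM in replicate 3, and Rbp4 was lowest in that replicate. The part of liver RNA in the Rbp4 level was not tested.

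Nampt encodes the rate-limiting enzyme of NAD salvage, also released from fat cells under the name visfatin, and lies at chr12:32819545-32853349 on the plus strand. It stood at 127, 149 and 120 CPM in preadipocyte, 32.7, 40.3 and 33.3 CPM in smooth muscle, 29.8, 27.9 and 26.4 CPM in intermediate and 49.1, 41.7 and 46.2 CPM in progenitor libraries. No population overlapped another. The preadipocyte level was higher than that of progenitor, intermediate and smooth muscle libraries by 1.53 ± 0.13, 2.23 ± 0.14 and 1.89 ± 0.14, or 2.89-fold, 4.7-fold and 3.7-fold, each held in all 20 alternatives. Intermediate libraries were lower than progenitor libraries at -0.70 ± 0.13 (adjusted p = 0.00152). Smooth muscle libraries were lower than progenitor libraries at -0.36 ± 0.13 (adjusted p = 0.0327). This call was lost without smooth muscle replicate 1 (-0.31) or 3 (-0.34) or progenitor replicate 1 (-0.34) or 3 (-0.39), was lost with a filter of 5 CPM (-0.16) and turned to 0.08 with library size alone. Smooth muscle over intermediate did not pass at 0.34 ± 0.13 (adjusted p = 0.0688), but was called at 0.83 with library size alone and at 0.41 with a filter of 5 CPM.

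Hp encodes haptoglobin, the plasma protein that binds free haemoglobin, and lies at chr8:109575128-109579172 on the minus strand. It stood at 196, 254 and 141 CPM in preadipocyte, 2.71, 1.2 and 1.27 CPM in smooth muscle, 3.29, 2.77 and 2.36 CPM in intermediate and 51.5, 86.2 and 78.5 CPM in progenitor libraries. Preadipocyte libraries lay above progenitor libraries, and both lay far above the other 2 populations, which overlapped. Preadipocyte libraries were higher than progenitor libraries by 1.45 ± 0.24, or 2.73-fold (adjusted p = 0.000116), than intermediate libraries by 6.13 ± 0.32, or 69.9-fold, and than smooth muscle libraries by 6.83 ± 0.33. Intermediate libraries lay 25.6-fold (-4.68 ± 0.31) and smooth muscle libraries 41.7-fold (-5.38 ± 0.32) under progenitor libraries. The difference of smooth muscle from intermediate libraries did not pass at -0.71 ± 0.36 (adjusted p = 0.162), and was called at -1.18 without smooth muscle replicate 1, -0.91 without progenitor replicate 2 and -0.97 without a low-count filter.

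Hepatocytes and neutrophils also transcribe Hp, and their markers were read in the same libraries. The 9 neutrophil markers in the table summed to 35.7, 10.1 and 6.22 CPM in preadipocyte replicates 1, 2 and 3, while Hp was highest in replicate 2. They summed to 3.30 to 5.91 CPM in smooth muscle, 1.78 to 4.57 in intermediate and 2.74 to 4.85 in progenitor libraries, where Hp reached 51.5 to 86.2 CPM. The 8 hepatocyte markers summed to 172 CPM in preadipocyte replicate 3 and 2.05 and 2.54 CPM in replicates 1 and 2, and Hp was lowest in replicate 3. They stood at 4.03 to 4.48 CPM in progenitor libraries. Of hepatocyte markers tested, 5 of 6 were called higher in preadipocyte than in progenitor libraries and 0 without preadipocyte replicate 3. Of neutrophil markers tested, 1 of 2 was called higher with all libraries, where 25.1% of all genes tested were. Without that replicate the low-count filter kept 5 neutrophil markers, all called higher. A marker can pass that filter through preadipocyte libraries alone, so these 2 counts cannot be compared. The share over all genes without that replicate is not given here. The part of either cell type in the Hp level was not tested.

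Apln encodes apelin, a peptide that relaxes vessels and acts on endothelium through its receptor, and lies at chrX:48025146-48034853 on the minus strand. It stood at 35.2, 36.3 and 16.4 CPM in preadipocyte, 2.28, 2.09 and 0.773 CPM in smooth muscle, 1.33, 0.90 and 1.09 CPM in intermediate and 16.8, 21.2 and 19.7 CPM in progenitor libraries. Preadipocyte replicate 3 fell below the progenitor range while replicates 1 and 2 lay above it, and the other 2 populations overlapped at low levels. Preadipocyte libraries were higher than intermediate libraries by 4.73 ± 0.38, or 26.4-fold, and than smooth muscle libraries by 4.08 ± 0.35, or 16.9-fold. Smooth muscle libraries lay 11.1-fold (-3.47 ± 0.35) and intermediate libraries 17.4-fold (-4.12 ± 0.38) under progenitor libraries. The 32, 33 and 11 counts in smooth muscle libraries compare with 8.61, 7.71 and 6.17 from an even background. Once it was taken off, 1.2 ± 0.748 CPM were left, so folds over smooth muscle depend on it. The difference of smooth muscle from intermediate libraries did not pass at 0.65 ± 0.43, interval -0.27 to 1.56, but passed at 1.13 with library size alone.

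Preadipocyte over progenitor gave 0.61 ± 0.29 in Apln (adjusted p = 0.0963, interval -0.01 to 1.22). Without preadipocyte replicate 3 it was 0.90 ± 0.21 and passed (adjusted p = 0.000981). It also passed with DESeq2 at 0.73 (adjusted p = 0.0411), RLE scaling at 0.72, a filter of 5 CPM at 0.73 and library size alone at 0.98, so in 5 of 20 alternatives. Endothelial cells also transcribe Apln. The 10 endothelial markers summed to 135, 118 and 63.8 CPM in preadipocyte, 162, 193 and 170 CPM in smooth muscle, 115, 102 and 58.3 CPM in intermediate and 153, 134 and 134 CPM in progenitor libraries. Most of the progenitor sum was the receptor gene Tek, at 130, 111 and 108 CPM there and 8.12 to 25.4 CPM in the other libraries, while its relative Tie1 stood at 0, 0 and 0.201 CPM in progenitor libraries. Of the 10 markers, 7 were called higher and 1 lower in preadipocyte than in progenitor libraries, where 25.1% and 25.9% of all genes were. Within preadipocyte libraries both the marker sum and Apln were lowest in replicate 3. The part of endothelial RNA in the Apln level was not tested.

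Rarres2 encodes chemerin, an attractant of immune cells that fat secretes as an inactive precursor, and lies at chr6:48569696-48572789 on the minus strand. It stood at 56.4, 44.6 and 34.3 CPM in preadipocyte, 103, 110 and 149 CPM in smooth muscle, 67.5, 54.6 and 66.6 CPM in intermediate and 120, 124 and 125 CPM in progenitor libraries. Smooth muscle and progenitor libraries overlapped and lay above intermediate and preadipocyte libraries, which also overlapped. Preadipocyte libraries were lower than progenitor libraries at -1.45 ± 0.18, or 2.73-fold (adjusted p = 5.78e-06), and lower than smooth muscle libraries at -1.42 ± 0.18 (adjusted p = 5.48e-06). Smooth muscle libraries were higher than intermediate libraries by 0.94 ± 0.18 (adjusted p = 0.000769), and intermediate libraries were lower than progenitor libraries at -0.97 ± 0.18 (adjusted p = 0.00114). Its exons share 892 bases, 33.6% of their length, with Lrrc61 on the opposite strand. The strand of counting is not given in the sources used here, so the 2 genes' reads may be mixed.

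Smooth muscle over progenitor gave -0.02 ± 0.18 in Rarres2 (adjusted p = 0.915, interval -0.40 to 0.35). Its sign turned to 0.07 and 0.03 without smooth muscle replicates 1 and 2, 0.17 with a filter of 5 CPM and 0.42 with library size alone, and without a low-count filter it was -0.50 and called. Preadipocyte over intermediate gave -0.48 ± 0.18 (adjusted p = 0.0313). That call was lost without preadipocyte replicate 2 (-0.46) or 3 (-0.30), intermediate replicate 1 (-0.27), 2 (-0.47) or 3 (-0.36) or progenitor replicate 2 (-0.37), and was -0.04 with library size alone. It was also lost with DESeq2 (-0.36), RLE scaling (-0.37), the compared groups alone (-0.41) and no low-count filter (-0.30), and so in 11 of 20 alternatives. The 8 mesothelial markers summed to 28.7, 69.2 and 17.0 CPM in preadipocyte, 1298, 1339 and 1740 CPM in smooth muscle, 96.2, 25.4 and 37.9 CPM in intermediate and 111, 96.6 and 225 CPM in progenitor libraries. Their part in the smooth muscle level of Rarres2 was not tested.

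Nrg4 encodes neuregulin 4, a growth factor of the EGF family that brown fat releases and that acts on liver through ERBB4, and lies at chr9:55220222-55326844 on the minus strand. It stood at 3.93, 4.59 and 2.61 CPM in preadipocyte, 2.21, 2.21 and 2.04 CPM in smooth muscle, 1.16, 2.17 and 1.90 CPM in intermediate and 1.40, 1.57 and 1.74 CPM in progenitor libraries. Every preadipocyte library lay above every other library, and intermediate libraries overlapped both smooth muscle and progenitor libraries. Preadipocyte libraries were higher than progenitor libraries by 1.23 ± 0.30 (adjusted p = 0.00245), than intermediate libraries by 1.08 ± 0.30 (adjusted p = 0.00606) and than smooth muscle libraries by 0.78 ± 0.29 (adjusted p = 0.0264). The last call was lost at 0.63 to 0.81 without preadipocyte replicate 1 or 2 or any 1 smooth muscle library. Exons of Nrg4 share 368 bases, 6.1% of their length, with Fbxo22 and 177 bases, 2.9%, with the pseudogene Gm15625, both on the opposite strand, so that some of its few counts may be theirs. The 31, 35 and 29 counts in smooth muscle libraries compare with 16.6, 14.9 and 11.9 from an even background, and 1.17 ± 0.128 CPM were left once it was taken off.

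No difference in Nrg4 among the other populations passed the test. Smooth muscle over progenitor gave 0.46 ± 0.31 (interval -0.19 to 1.11), called at 0.90 with library size alone and -0.02 without a low-count filter. With the even background taken off, Nrg4 stood at 1.03, 1.27 and 1.2 CPM in smooth muscle libraries. Progenitor libraries then had 1.32, 1.48 and 1.59 CPM, so the order of these populations turned. No test was run on the values with the background off. Smooth muscle over intermediate gave 0.30 ± 0.31 (interval -0.36 to 0.96), called at 0.78 with library size alone and -0.08 without intermediate replicate 1. Intermediate over progenitor gave 0.16 ± 0.32 (interval -0.52 to 0.83). Its sign turned to -0.19 and -0.05 without intermediate replicates 2 and 3, -0.01 without progenitor replicate 2 and -0.08 without a low-count filter.

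Levels of different genes are compared per kilobase of exon, as RPKM. In preadipocyte libraries Adipoq led at 689 ± 202 RPKM, followed by Hp at 123 ± 35, Rbp4 at 78.4 ± 19.3 and Cfd at 66.8 ± 20 RPKM, and the scarcest were Lep at 1.34 ± 0.893 and Nrg4 at 0.611 ± 0.166 RPKM. The 10 genes together summed to 1029 ± 285 RPKM in preadipocyte, 63.2 ± 10.7 in smooth muscle, 99.5 ± 7.58 in intermediate and 223 ± 24.1 in progenitor libraries. They took 0.176% ± 0.0369 of all counts in preadipocyte libraries, 0.0207% ± 0.00271 in smooth muscle, 0.0159% ± 0.00101 in intermediate and 0.0365% ± 0.00284 in progenitor libraries.

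The make-up of that sum differed by population. Adipoq held 66.8% ± 1.11 of the summed RPKM in preadipocyte libraries, 1.70% ± 1.10 in smooth muscle, 9.45% ± 1.31 in intermediate and 19.2% ± 3.80 in progenitor libraries. Rarres2 held 1.70% ± 0.440 in preadipocyte, 71.4% ± 2.77 in smooth muscle, 23.8% ± 1.09 in intermediate and 20.9% ± 2.15 in progenitor libraries. Rbp4 held 7.67% ± 0.418, 10.8% ± 1.42, 57.8% ± 2.29 and 31.9% ± 2.61 in preadipocyte, smooth muscle, intermediate and progenitor libraries. Thus a different gene led in preadipocyte, smooth muscle and intermediate libraries, and in progenitor libraries Rbp4 led with Rarres2, Hp at 20.1% ± 4.55 and Adipoq close together behind it. A share also moves when another gene of the sum moves, and it depends on the length taken, here the union of annotated exons. Rarres2 shares 33.6% of that length with Lrrc61 on the opposite strand, so its share may hold reads of Lrrc61.

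**Figure D3:**
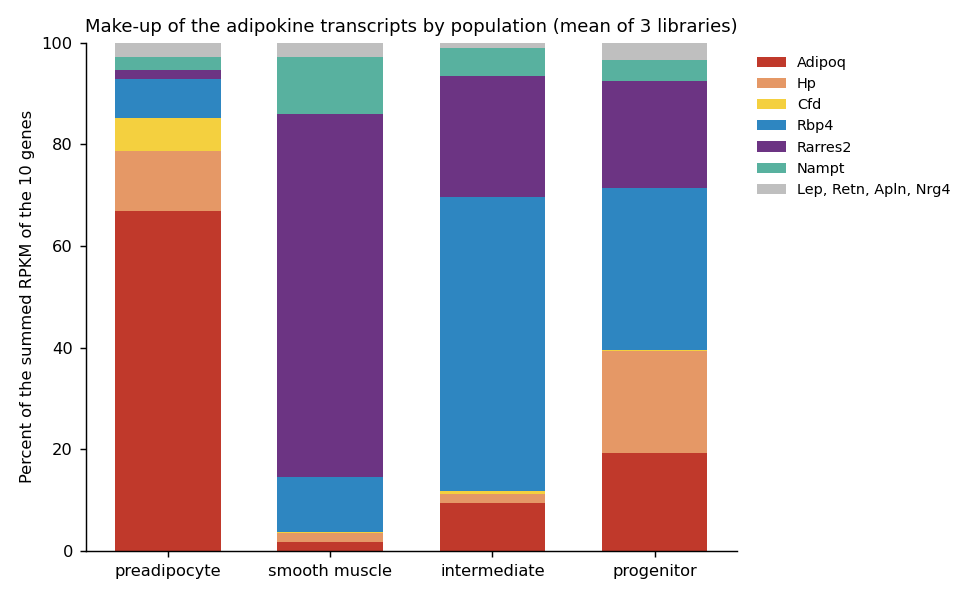
Share of each gene in the summed RPKM of the 10 genes, in percent, as the mean of 3 libraries, for preadipocyte, smooth muscle, intermediate and progenitor libraries from left to right. Lep, Retn, Apln and Nrg4 are drawn together. Adipoq fills 66.8% of the preadipocyte bar, Rarres2 71.4% of the smooth muscle bar and Rbp4 57.8% of the intermediate bar.

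Within the preadipocyte libraries replicate 2 was the highest for 9 of the 10 genes, Rarres2 being highest in replicate 1, and replicate 3 was the lowest for 8, the others being Lep and Cfd with their lowest value in replicate 1. Of all genes tested, 37.2% were highest in replicate 2 and 40.2% lowest in replicate 3. By library size alone, replicate 2 was highest for 8 of the 10, with Apln also highest in replicate 1, against 26.4% of all genes. The highest library stood over the lowest by 1.24 times for Nampt, 1.80 times for Adipoq and Hp, 2.21 times for Apln and 3.34 times for Lep. The 18 lipid storage genes summed to 15340, 21195 and 11023 CPM in replicates 1, 2 and 3, the same order as Adipoq. In smooth muscle libraries replicate 1 was highest for 4 genes and replicates 2 and 3 for 3 each.

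Receptors and binding partners of the 10 proteins formed a list of 15 genes. In preadipocyte over progenitor libraries 1 was called higher and 5 lower, where 25.1% and 25.9% of all genes were, and the list's median log2 fold change was -0.01, against 0.04 over all genes. Adipor2, a receptor of adiponectin, stood at 154, 151 and 105 CPM in preadipocyte libraries, against 30.4, 39.3 and 27.2 CPM in progenitor libraries. That is a rise of 2.08 ± 0.19 (adjusted p = 1.87e-07), with 25.4 ± 3.51 CPM in smooth muscle and 35.2 ± 5.34 CPM in intermediate libraries. The leptin receptor gene Lepr was lower at -1.37 ± 0.22, Cap1, an actin regulator reported as a receptor of human resistin, at -0.98 ± 0.16, and Cdh13, which encodes the adiponectin-binding T-cadherin, at -1.14 ± 0.23. The other 2 that were lower were Gpr1, a receptor of chemerin, at -1.86 ± 0.40 and Stra6, the RBP4 receptor gene, at -1.52 ± 0.36. With library size alone 5 of the 15 were higher and 5 lower, where 7857 and 3773 of the 21285 genes tested were. Without preadipocyte replicate 3 the counts were 2 and 7. The share over all genes in that setting is not given here, so the shift cannot be read as particular to the list.

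Smooth muscle libraries carried more of several of these receptors. In preadipocyte over smooth muscle libraries 1 of 15 was called higher and 11 lower, where 25.9% and 40.7% of all genes were, with a median of -1.60. In smooth muscle over progenitor libraries 8 were higher and none lower, where 30.5% and 23.6% of all genes were, with a median of 0.84. At an unadjusted p under 0.05 edgeR also had 0 lower, as had DESeq2 after adjustment. Cdh13 stood at 103, 82.3 and 88.1 CPM in smooth muscle libraries, against 9.23, 10.7 and 12.2 CPM in progenitor libraries, a rise of 3.09 ± 0.23 (adjusted p = 2.77e-08). Erbb4, the receptor of neuregulin 4, stood at 20.3, 20.2 and 16.5 CPM in smooth muscle libraries, against 0.155, 0.342 and 0.334 CPM in progenitor libraries (6.04 ± 0.40). Its partner Erbb3 was higher by 3.69 ± 0.23. Without preadipocyte replicate 3 the count was 10 higher and 1 lower, the lower one being Adipor2. This comparison holds no preadipocyte library, but its estimate of spread draws on all populations. The share over all genes in that setting is not given here. With a filter of 5 CPM, which leaves fewer genes, the count was 5 higher and none lower. With that filter 6 of the list were lower in preadipocyte over smooth muscle libraries. Markers of other cells moved with these receptors. The 8 Schwann cell and neuron markers summed to 692, 919 and 922 CPM in smooth muscle libraries, against 23.2, 27.3 and 25.2 CPM in progenitor libraries, with 7 called higher and 1 lower. The 8 mesothelial markers, given above, were all called higher. The part of such cells in the receptor levels was not tested. The even background was 1.96 to 2.73 counts per kilobase in smooth muscle libraries. It was 0.150 to 0.375 in progenitor and 0.129 to 0.649 in preadipocyte libraries. It was not taken off the receptors. Some had few counts, such as Cd163 at 18, 42 and 12 counts in smooth muscle libraries, and the part of the background in them was not tested.

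Lepr was highest in intermediate libraries, at 47.0, 45.2 and 36.2 CPM, against 16.4, 9.29 and 10.3 CPM in progenitor libraries. The rise was 1.84 ± 0.21 (adjusted p = 1.17e-05), and preadipocyte libraries lay under intermediate libraries at -3.21 ± 0.22 (adjusted p = 7.08e-09), with 4.63 ± 0.572 CPM. Preadipocyte libraries thus had the highest mean of Lep and the lowest mean of Lepr. Adipor1, the other adiponectin receptor gene, stood at 127 ± 20.1 CPM in preadipocyte, 131 ± 4.94 in smooth muscle, 110 ± 3.95 in intermediate and 128 ± 11.5 in progenitor libraries and edgeR called it in 0 of the 6 comparisons, with 0 at an unadjusted p under 0.05, where DESeq2 called it in 1. Aplnr, the apelin receptor gene, was low and uneven, at 1.81 to 5.60 CPM in preadipocyte, 0.633 to 5.88 in smooth muscle, 2.27 to 7.95 in intermediate and 1.0 to 1.78 in progenitor libraries.

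**Figure D4:**
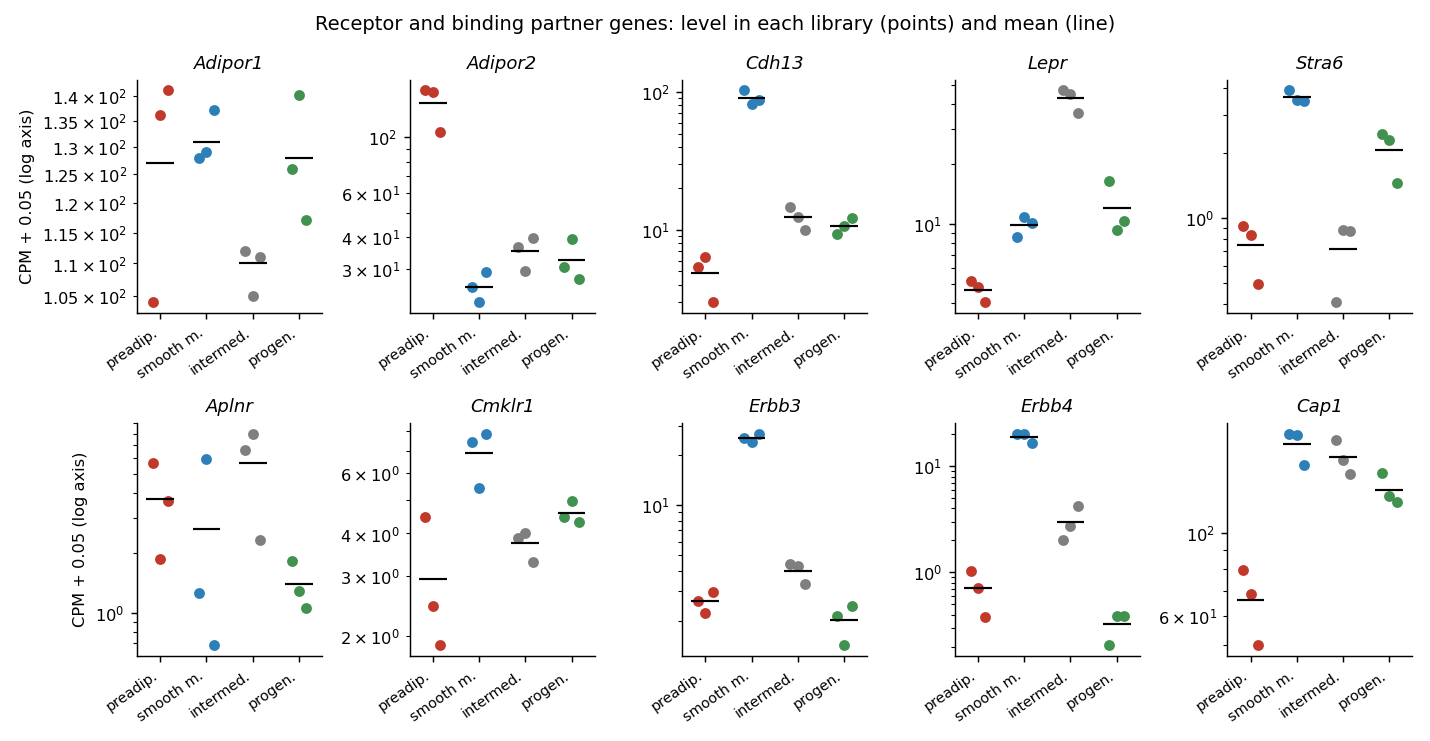
Level of 10 receptor and binding partner genes in every library, as CPM after TMM scaling plus 0.05 on a log axis whose range differs by panel, for preadipocyte, smooth muscle, intermediate and progenitor libraries from left to right. Points are libraries and lines are means of 3 libraries. Adipor2 is highest in preadipocyte libraries at 137 CPM, Cdh13, Erbb3 and Erbb4 in smooth muscle libraries, and Lepr in intermediate libraries at 42.8 CPM.

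Genes that act with adiponectin and adipsin were read in preadipocyte over progenitor libraries, where 25.1% of all genes were called higher and 25.9% lower. Of 8 genes that fold, modify or release adiponectin, 2 were higher and 4 lower, with a median of -0.69. Erp44, which retains adiponectin in the endoplasmic reticulum, was at 91.8 ± 11.6 CPM in preadipocyte and 212 ± 2.99 CPM in progenitor libraries (-1.21 ± 0.12). The lysyl hydroxylase genes Plod1 and Plod2 were lower at -1.70 ± 0.18 and -1.06 ± 0.17, and P4hb, a disulfide isomerase, at -1.23 ± 0.13. Gstk1, reported to promote adiponectin assembly, and the sorting receptor gene Sorl1 were higher by 1.15 ± 0.20 and 1.05 ± 0.25. Of 7 alternative complement genes, none was higher and 4 were lower, with 0 higher at an unadjusted p under 0.05 in edgeR and 0 by DESeq2. Cfb, which encodes the substrate of adipsin, stood at 0.189 ± 0.0690 CPM in preadipocyte and 1.48 ± 0.111 CPM in progenitor libraries (-2.92 ± 0.61). The membrane inhibitor gene Cd55 changed by -2.75 ± 0.37, and Cfi, a protease that inactivates C3b, by -1.97 ± 0.46. Both were highest among preadipocyte libraries in replicate 3, and without it they changed by -3.55 and -2.67. C3 itself did not pass at -0.46 ± 0.40. With a filter of 5 CPM, which leaves fewer genes, 2 complement genes were called lower.

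Partners of the carriers and of NAMPT were read in the same comparison, with the same 25.1% and 25.9% over all genes. Of 7 retinol genes 1 was higher and 4 lower. Lrat, which esterifies retinol, changed by -3.26 ± 0.64 and the retinoic acid enzyme gene Aldh1a2 by -1.98 ± 0.45, or -2.66 without preadipocyte replicate 2. The gene called higher was Ttr, whose protein travels with RBP4 in plasma. It stood at 0.108, 0.0604 and 10.7 CPM in preadipocyte replicates 1, 2 and 3. Without replicate 3 no retinol gene was higher and 5 were lower, with the share over all genes in that setting not given here. With a filter of 5 CPM 2 were lower and none higher. Of 11 NAD genes 2 were higher and 4 lower, counts near those shares. Nmnat3, a mitochondrial NAD synthesis gene, was higher by 3.99 ± 0.50, at 9.81, 11.6 and 32.8 CPM in preadipocyte replicates 1, 2 and 3, so that it was highest in the library with the most haemoglobin RNA, and without that library the rise was 3.24. The NAD kinase gene Nadk was higher by 0.74 ± 0.19, while Naprt and Qprt, of other routes to NAD, changed by -1.12 ± 0.15 and -2.11 ± 0.30, and the riboside kinase genes Nmrk1 and Nmrk2 by -0.59 ± 0.17, a call lost with library size alone (-0.20), and -1.68 ± 0.49.

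Of 5 apelin genes beside Apln, 1 was higher and 1 lower in preadipocyte over progenitor libraries, where 25.1% of all genes were higher and 25.9% lower. The gene called higher was Mme, which encodes the protease neprilysin, by 1.49 ± 0.24. Of 6 haem genes beside Hp, Flvcr1, a haem exporter, and Hmox1, which breaks haem down, were higher by 0.70 ± 0.16 and 0.84 ± 0.22, and Lrp1, a receptor of the haem carrier haemopexin, changed by -2.10 ± 0.17. Among 12 regulators of fat cell genes 8 were higher and 1 lower, set against the same shares. Cebpa, whose protein binds C/EBP motifs, stood at 125, 80.5 and 39.9 CPM in preadipocyte libraries, against 15.1, 19 and 16.3 CPM in progenitor libraries (2.28 ± 0.30).

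A further list of 40 secreted factors of fat and its stroma, 36 of them tested, had 9 higher and 22 lower in preadipocyte over progenitor libraries, with a median of -1.38. Over all genes 25.1% were higher and 25.9% lower, so the higher count lies near that share. The adiponectin relatives C1qtnf2, C1qtnf7 and C1qtnf1 were among the lower. C1qtnf2 stood at 10.3 ± 2.46 CPM in preadipocyte, 45.5 ± 1.83 in smooth muscle, 202 ± 17.5 in intermediate and 195 ± 16.2 in progenitor libraries, a change of -4.24 ± 0.17 from progenitor that runs against Adipoq. C1qtnf7 and C1qtnf1 changed by -4.03 ± 0.17 and -3.59 ± 0.16, and the cytokine gene Il6 by -3.47 ± 0.15. Among the 9 that rose, C1qtnf12, another relative, was higher by 1.99 ± 0.24 at 71.7 ± 28.6 CPM in preadipocyte and 18.0 ± 3.44 CPM in progenitor libraries, and Angptl8, an inhibitor of lipoprotein lipase, by 2.93 ± 0.38.

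The genes whose levels followed the 10 most closely were sought among 7801 genes over the 12 libraries, which fall into 4 populations and so share that structure. Adipoq followed Car3, a carbonic anhydrase gene of fat and muscle, with a Pearson correlation of log2 CPM of 0.999, and 889 genes reached 0.9 with it. Retn was closest to Nup37 (0.992), Cfd to Hibch (0.986) and Nampt to Mrps9 (0.994), with 1345, 1264 and 1297 genes at 0.9. Rbp4 was closest to Nnmt (0.990), Rarres2 to Tmod2 (0.979) and Hp to Malsu1 (0.984). Apln was closest to Hp itself (0.969). Lep and Nrg4 were closest to Mpp7 (0.938) and Hist1h1c (0.918), with 11 and 4 genes at 0.9.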

How the data were processed

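The 12 libraries, 3 for each of 4 populations named in the sample titles, were made from poly(A) RNA with SMART-Seq v4, per the labels' protocols. The submitters' processing notes name STAR 2.5.2a, DESeq2 1.26.0 and mm10. How reads were counted, on which annotation and whether by strand, is not given in the sources used here. Whole-number counts per gene, unscaled, make up the deposited table, and every test started from them. The authors' normalized and log-scale tables were not used here.

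GENCODE M21 on mm10 gave names for 36480 of the 36512 Ensembl identifiers and the coordinates of the members. After filterByExpr 21285 genes were left. TMM factors ran from 0.823 to 1.2. The model had 1 coefficient per population over all libraries, was fitted with edgeR 4.0.16 (glmQLFit, then glmQLFTest, two-sided) under R 4.3.3, and its p-values went through the Benjamini-Hochberg method over the genes tested. The SE of a log2 fold change was derived from the F statistic, intervals are 95% and unadjusted, and the common biological coefficient of variation came to 0.2. RPKM used the same scaled counts and the union of exons. The even background is the count per kilobase over 1064 olfactory and vomeronasal receptor genes.

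The members and the 21 gene lists were chosen with earlier results of these data known. Of 222 list entries, 219 were found. From each list described, the genes with the smallest p were named, up to 4 per comparison. Genes beyond these, named to account for counts of 5 or fewer or to show a receptor of a member, were chosen after their values were seen. Likeness was taken over genes with a mean log2 CPM of at least 4.

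Replicates were checked for libraries deposited more than once, and none was found: the lowest chi-square per degree of freedom of a pair was 4.37. Preadipocyte pairs stood at 39.7, 84.5 and 75.4, and pairs within the other populations at 4.37 to 14.1. The model shares its estimate of a gene's spread over all populations. The SE and p-value of a preadipocyte comparison thus also draw on groups whose libraries lie closer together. At the 11701825 to 17123109 counts of a library, a count of 0 allows 0.175 to 0.256 CPM by library size, taking 3 counts as the limit. Reads carry no molecular identifiers, so such limits cover counting error only. In simulated counts over 21285 genes for preadipocyte over progenitor, 100 genes were given a 2-fold change and 100 a 4-fold change. The test found 36 and 74 of these, and 4 of its 114 calls were false. In the data 50.9% of genes were called in that comparison. The simulation thus held far fewer changed genes, and its rates need not be those of the reported test.

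Alternatives were RLE scaling, library size alone, a floor of at least 5 CPM in 3 libraries, keeping genes of low counts, DESeq2 1.42.0, limma-voom (limma 3.58.1), models of the compared groups alone, a replicate block, each library left out in turn and the even background taken off. Counts and fold changes of list members under these settings, and the order of preadipocyte libraries by library size, were added after seeing the data. Some genes counted within the lists are not reported here by name.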

Additional observations from a re-analysis of the deposited data

How the results depend on the processing

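Over 60 pairs of gene and comparison and 20 settings, 1093 of 1183 fold changes kept their direction and their side of the threshold, and 41 pairs did so in every setting run for them. A call was lost in 29 values and gained in 47, and the sign turned in 14. The number of the 10 genes called in smooth muscle over intermediate was 7 with library size alone, 5 higher and 2 lower, and 4 with TMM. No other count of members called moved by over 1.5 times in the settings run. The sign turns all concerned fold changes that were small or near background. For smooth muscle over progenitor, Nampt and Rarres2 were 0.08 and 0.42 with library size alone, Rarres2 was 0.17 with at least 5 CPM and Nrg4 -0.02 without a low-count filter, and Nrg4 was -0.08 without that filter for intermediate over progenitor. With 1 library left out at a time, Rbp4 ran from -0.04 to 0.32 for preadipocyte over progenitor, Rarres2 from -0.39 to 0.07 for smooth muscle over progenitor, Nrg4 from -0.08 to 0.32 for smooth muscle over intermediate, and Nrg4 and Cfd from -0.19 to 0.22 and from -1.06 to 0.25 for intermediate over progenitor. The cause was not tested. Replicate numbers recur in every population, and the labels do not say whether they pair the samples. Same-numbered libraries of different populations deviated with correlations of -0.136 to 0.207, over 0.1 in 5 of 18 pairs, and their own number was the best in 9 of 18. With so few libraries per population, such correlations cannot decide whether the samples are paired. With a replicate block, Lep in intermediate over progenitor passed at 2.54 ± 0.85 (adjusted p = 0.0411), and no other call among the 10 genes changed. Depth limits Lep, Retn, Cfd and Nrg4 outside preadipocyte libraries, where counts are few or lie near the even background. It also limits Apln and Hp in smooth muscle and intermediate libraries and Adipoq in smooth muscle libraries, where counts are few.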
